A study of Rattus norvegicus with 192 samples.

Results

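The 8 genes described here carry the endocannabinoid system of the rat brain from receptor to breakdown. They were taken by gene symbol from the 38354 genes of the nucleus accumbens core expression table: Cnr1 (the CB1 cannabinoid receptor), Cnrip1, Dagla, Daglb, Mgll, Abhd6, Napepld and Faah. All 8 were found, and each averaged at least 1 CPM, the minimum for the 15427 genes that were tested. Endocannabinoids are lipid messengers that are made in a neuron on demand and travel backwards across the synapse to CB1 receptors on the incoming terminal, where they lower transmitter release. The main brain endocannabinoid, 2-arachidonoylglycerol (2-AG), is made by diacylglycerol lipases and broken down mostly by monoacylglycerol lipase, while anandamide is broken down by fatty acid amide hydrolase. In the striatum CB1 is made by medium spiny neurons and some interneurons, and the CB1 protein also sits on the terminals of cortical neurons that project there.

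PolyA RNA of the nucleus accumbens core was sequenced from outbred heterogeneous stock rats, with each library carrying its own rat identifier. Of 192 labelled libraries, 33 carried a note of removal and were not analysed here. No treatment, genotype, sex, age or batch is stated in the labels, so the libraries can be divided only by the format of the rat identifier and by what they express. Levels are given as CPM, the share of a library's expected counts times 1000000, without regard to transcript length, so values are compared within a gene only.

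By measured expression, 11 libraries had at least 100 CPM of Th, the dopamine-synthesis enzyme of dopamine neurons (Th libraries), and 147 had at least 100 CPM of Drd1, the D1 dopamine receptor of medium spiny neurons (Drd1 libraries). A single library had neither, and none had both. By identifier format, the Drd1 libraries divided into 12 whose label was corrected from the genotype to a format starting with E21 (corrected E21), 76 that carried such an E21 label from the start, 56 with an all-digit label (numeric), 2 with a label starting with AA1 and 1 corrected to another format. Of the 11 Th libraries, 10 had a numeric label and 1 an E21 label, and the library with neither gene was numeric.

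The promoters of Cnrip1, Daglb and Faah are shown because their transcripts varied together across Drd1 libraries, and that of Mgll because its transcript stood apart from them and from the others between Th and Drd1 libraries. Each run is the RefSeq sequence of assembly GRCr8 from 250 bases before to 50 bases after the annotated start, read 5′ to 3′ on the gene's strand. The annotated start was the outer end of the gene for Mgll and Faah but lay inside the gene for Cnrip1 and Daglb. Capitals mark matches on either strand to 6 short motifs. These were the GC box GGGCGG, the CCAAT box, the TATA box TATAAA and the E-box CACGTG. The other motifs were the core of the cAMP response element, TGACGT, and the core of the NRF1 motif, GCATGCG.
Cnrip1, chr14:95664262-95664561, plus strand: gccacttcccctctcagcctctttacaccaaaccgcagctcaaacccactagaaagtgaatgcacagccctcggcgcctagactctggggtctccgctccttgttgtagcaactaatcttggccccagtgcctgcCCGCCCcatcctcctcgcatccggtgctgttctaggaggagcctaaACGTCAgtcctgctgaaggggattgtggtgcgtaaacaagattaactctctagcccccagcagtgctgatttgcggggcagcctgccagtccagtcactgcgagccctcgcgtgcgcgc
Daglb, chr12:16215709-16216008, minus strand: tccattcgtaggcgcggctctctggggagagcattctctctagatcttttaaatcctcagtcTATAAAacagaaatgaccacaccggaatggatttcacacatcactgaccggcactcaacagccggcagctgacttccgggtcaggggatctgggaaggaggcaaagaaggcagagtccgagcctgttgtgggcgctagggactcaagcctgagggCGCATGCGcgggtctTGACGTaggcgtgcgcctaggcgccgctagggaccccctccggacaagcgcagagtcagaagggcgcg
Faah, chr5:134735347-134735646, minus strand: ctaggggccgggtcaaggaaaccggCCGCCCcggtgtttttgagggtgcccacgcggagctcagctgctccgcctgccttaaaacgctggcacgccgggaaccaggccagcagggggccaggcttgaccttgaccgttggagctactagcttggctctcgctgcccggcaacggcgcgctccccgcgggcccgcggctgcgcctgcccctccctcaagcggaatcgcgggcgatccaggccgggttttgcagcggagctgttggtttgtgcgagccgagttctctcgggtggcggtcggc
Mgll, chr4:122749186-122749485, plus strand: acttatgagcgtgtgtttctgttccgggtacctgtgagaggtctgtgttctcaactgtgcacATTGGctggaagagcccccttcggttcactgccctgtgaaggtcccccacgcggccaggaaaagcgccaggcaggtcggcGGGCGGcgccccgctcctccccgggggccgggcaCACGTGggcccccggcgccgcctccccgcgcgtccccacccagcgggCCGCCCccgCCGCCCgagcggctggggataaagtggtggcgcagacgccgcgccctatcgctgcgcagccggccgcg

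GC boxes were found 1 time in the Cnrip1 window, 1 time in that of Faah and 3 times in that of Mgll, and none in that of Daglb, while 33.1% of 33469 rat promoter windows of the same length held at least 1. TGACGT stood 1 time in each of the Cnrip1 and Daglb windows and in 7.94% of all windows. Daglb also held 1 TATAAA, present in 14.2% of windows, and 2 overlapping matches to GCATGCG, 1 on each strand, a motif present in 3.33%. Mgll held 1 CCAAT (37.5% of windows) and 1 CACGTG (6.42%). No one of these 6 motifs was found in all 3 windows of the genes that varied together. Among the others with a window, Abhd6 held 1 GC box and 1 CCAAT, and Napepld held 8 GC boxes. These counts describe letters only.

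The libraries used held between 14.6 and 61.2 M expected counts (M is 1000000), with a mean of 24.8 M and an SD of 7.17 M. The lowest Drd1 level among Drd1 libraries was 154 CPM and the highest outside them 20.0 CPM. The lowest Th level among Th libraries was 630 CPM and the highest outside them 10.7 CPM. A list of 12 medium spiny neuron markers summed to between 344 and 565 CPM in Th libraries and between 3114 and 8097 CPM in Drd1 libraries, and without Drd1, which set the profiles, to between 342 and 557 CPM in Th libraries and between 2960 and 7756 CPM in Drd1 libraries. The Th libraries thus went against the tissue named in their labels. A list of 6 midbrain dopamine neuron markers, Th among them, summed to between 975 and 3384 CPM in Th libraries and between 0.222 and 14.9 CPM in Drd1 libraries. Its other 5 genes summed to between 345 and 1365 CPM in Th libraries and between 0 and 4.18 CPM in Drd1 libraries, where each was at 0 in at least 1 library. The oligodendrocyte list of 8 genes summed to a median of 30026 CPM in Th libraries and 16346 CPM in Drd1 libraries, and the astrocyte list of 8 genes to 4401 CPM in Th libraries and 1882 CPM in Drd1 libraries. Because measured Th and Drd1 set these groups apart, the levels below are a description without a test, and the part of these markers in them was not tested. In bulk tissue, fewer cells of a type and less RNA per cell cannot be told apart.

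Cnr1, the receptor, was lower in Th libraries, at 29.5, 35.9 and 53.6 CPM (lowest, median and highest of 11), than in Drd1 libraries, at 44.7, 79.7 and 193 CPM (of 147). The ranges overlapped, with 9 of the 11 Th libraries below the lowest Drd1 library, and the Th median was 0.451 of the Drd1 median. Cnrip1 encodes a cytosolic protein that binds the tail of CB1. It had 56.2, 62.8 and 67.7 CPM in Th libraries and 49.9, 69.2 and 121 CPM in Drd1 libraries, so its whole Th range lay within the Drd1 range. All 11 Th libraries were below its Drd1 median. The receptor and its binding protein therefore differed in size of shift between the library profiles, with a median ratio of 0.908 for Cnrip1.

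The diacylglycerol lipases, which make 2-AG, lay in opposite directions. Dagla, the lipase needed for retrograde signalling at adult synapses, had 50.3, 60.2 and 67.1 CPM in Th libraries and 53.4, 97.5 and 127 CPM in Drd1 libraries. Of the Th libraries, 3 were below every Drd1 library and all 11 were below the Drd1 median. Daglb, the second lipase, which makes 2-AG in mouse microglia, had 27.4, 37.6 and 42.8 CPM in Th libraries and 20.2, 27.4 and 34.5 CPM in Drd1 libraries. It was above every Drd1 library in 10 of the 11 Th libraries, and the median ratio was 1.37, against 0.618 for Dagla.

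Mgll, monoacylglycerol lipase, which ends most 2-AG signalling, was the only one of the 8 genes whose ranges did not overlap. It had 87.3, 104 and 133 CPM in Th libraries and 207, 297 and 409 CPM in Drd1 libraries, with a Th median of 0.350 of the Drd1 median. Across the 15427 genes tested, 12.6% had ranges that did not overlap between Th and Drd1 libraries, and in 6.57% every Th library was lower, so 1 member of 8 lay near the background. Abhd6, a serine hydrolase that cleaves 2-AG inside the postsynaptic cell, had 32.0, 36.0 and 40.4 CPM in Th libraries and 28.3, 44.8 and 58.8 CPM in Drd1 libraries. All 11 Th libraries lay within the Drd1 range and below the Drd1 median, with a median ratio of 0.803.

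Napepld, a phospholipase D that makes anandamide and related amides, was higher in Th libraries, at 14.7, 18.8 and 23.0 CPM, than in Drd1 libraries, at 8.72, 13.9 and 17.7 CPM. Of the Th libraries, 9 of 11 exceeded every Drd1 library, and all 11 exceeded the Drd1 median. Faah, which breaks anandamide down, had 22.1, 25.8 and 32.2 CPM in Th libraries and 20.6, 33.0 and 67.9 CPM in Drd1 libraries. All of its Th libraries lay below the Drd1 median and within the Drd1 range. The median of the 8 log2 differences (Th minus Drd1 medians) was -0.33, and that of all genes tested was 0.02.

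**Figure D1:**
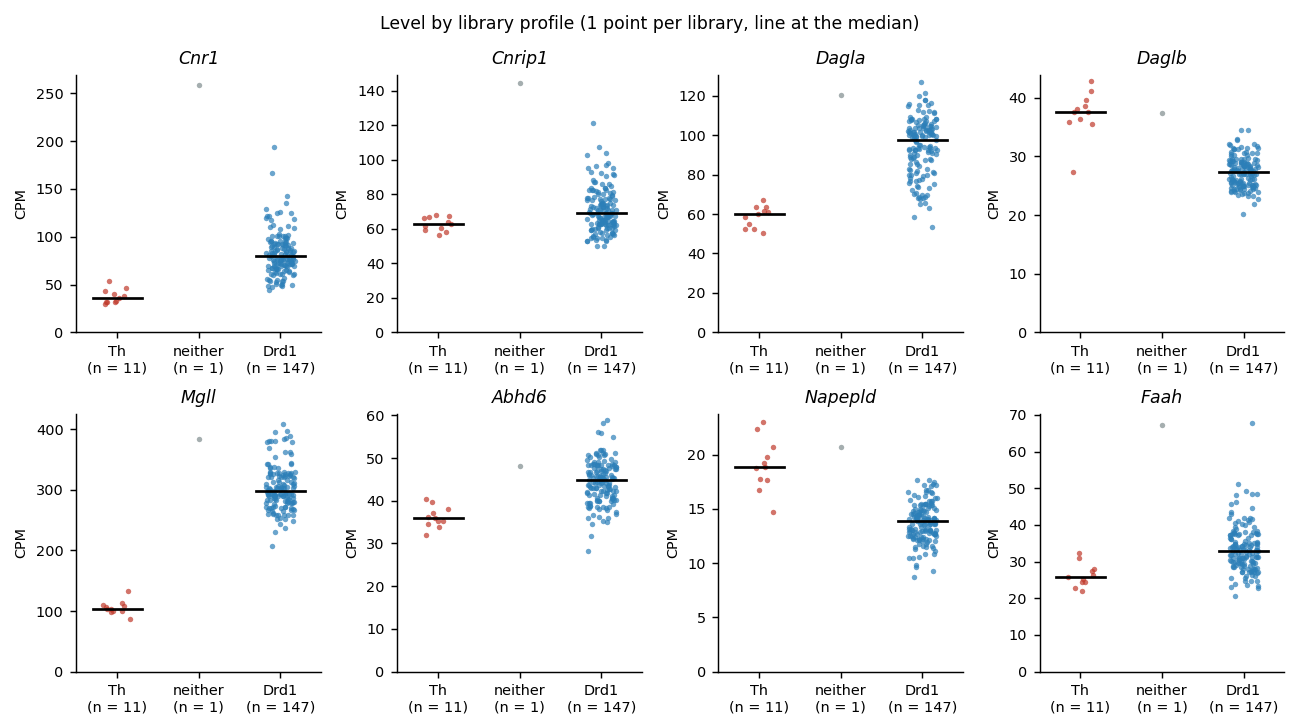
Level in CPM (y axis, from 0) of each of the 8 genes in the 11 Th libraries, the 1 library with neither Th nor Drd1 at 100 CPM, and the 147 Drd1 libraries, with 1 point per library and a line at the median. Mgll is the gene with a clear space between Th libraries (up to 133 CPM) and Drd1 libraries (from 207 CPM), while Daglb and Napepld lie mostly higher in Th libraries.

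The library with neither gene, numeric replicate 3, was set beside the 147 Drd1 libraries as a single value. It had 258 CPM of Cnr1, 145 CPM of Cnrip1, 37.5 CPM of Daglb and 20.7 CPM of Napepld, each above the highest Drd1 library. It ranked within the Drd1 range for Dagla (120 CPM), Mgll (384 CPM), Abhd6 (48.1 CPM) and Faah (67.2 CPM). A list of 8 cortical projection neuron markers summed to 2737 CPM in it, above the highest Drd1 library at 1486 CPM.

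A list of 38 other genes of the system (other receptors, CB1-binding proteins, suppliers of the 2-AG precursor, further enzymes and lipid carriers) had 29 that were tested. In 6 of them Th and Drd1 ranges did not overlap, with 3 higher and 3 lower in every Th library, against 12.6% of all genes tested. Gprasp1, a sorting protein that directs CB1 to lysosomes, had 526, 637 and 749 CPM in Th libraries and 178, 306 and 437 CPM in Drd1 libraries. Plcb4, a phospholipase C that supplies diacylglycerol, had 120, 145 and 183 CPM in Th libraries and 9.88, 22.4 and 34.7 CPM in Drd1 libraries. Both genes, and with them the fatty acid carrier Fabp5, were higher in every Th library than in any Drd1 library. Grm5, the glutamate receptor that drives 2-AG release from spiny neurons, had 28.6, 41.8 and 66.3 CPM in Th libraries and 132, 338 and 523 CPM in Drd1 libraries. Chrm1, the M1 muscarinic receptor, and Ptgs2, a cyclooxygenase that oxidises 2-AG, were likewise lower in every Th library. Transcripts of the CB2 receptor gene Cnr2 were near 1 CPM, with medians of 1.33 CPM in Th libraries and 1.12 CPM in Drd1 libraries.

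Among Drd1 libraries, the identifier formats differed in 5 of the 8 genes. Cnr1, Cnrip1, Dagla, Mgll and Abhd6 were lower in E21 than in numeric libraries, and none was higher (limma, Benjamini-Hochberg adjusted p at 0.05, 76 against 56 libraries). Of all genes tested, 37.6% were called in this comparison, 25.9% as lower and 11.7% as higher, so calls were common. The median log2 change was -0.10 over the 8 members and -0.03 over all genes.

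Cnr1 had 44.7, 72.1 and 129 CPM in E21 libraries and 47.4, 86.9 and 193 CPM in numeric libraries. The ranges overlapped almost wholly, and Cnr1 fell by 0.31 on the log2 scale (SE 0.06, limma adjusted p = 8.7e-06). Cnrip1 had 49.9, 64.7 and 121 CPM in E21 libraries and 52.95, 71.8 and 107 CPM in numeric libraries, and fell by 0.12 (SE 0.04, limma adjusted p = 0.016). Mgll had 207, 289 and 397 CPM in E21 libraries and 243, 311 and 409 CPM in numeric libraries, and fell by 0.11 (SE 0.03, limma adjusted p = 0.0028). None of these shifts clearly exceeded the spread between libraries, whose SD on the log2 scale was 0.31 among E21 and 0.35 among numeric libraries for Cnr1, and 0.18 among E21 and 0.16 among numeric libraries for Mgll.

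Dagla had 53.4, 93.0 and 127 CPM in E21 libraries and 78.2, 99.5 and 116 CPM in numeric libraries. E21 libraries reached both lower and higher values, with an SD of 0.29 on the log2 scale against 0.12 in numeric libraries, and the mean fell by 0.11 (SE 0.04, limma adjusted p = 0.02). Abhd6 had 28.3, 43.5 and 55.8 CPM in E21 libraries and 36.2, 45.7 and 58.8 CPM in numeric libraries, and fell by 0.09 (SE 0.03, limma adjusted p = 0.0074). Daglb (-0.02), Napepld (-0.06) and Faah (0.004) did not pass, with 95% intervals of the log2 difference of -0.06 to 0.03 for Daglb, -0.13 to -0.004 for Napepld and -0.09 to 0.09 for Faah.

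Cortical markers moved with this comparison. Of the 8 cortical markers, 7 were called lower in E21 libraries and none higher, and their sum had a range of 26.3 to 1486 CPM with a median of 149 CPM in E21 libraries, against 42.5 to 1314 CPM with a median of 360 CPM in numeric libraries. Neurod2 and Emx1 were at 0 in at least 1 E21 library. Of the 12 medium spiny neuron markers, 7 were called higher in E21 libraries, with a summed range of 4003 to 8097 CPM in E21 and 3114 to 7600 CPM in numeric libraries. Of 8 interneuron markers, 4 were called lower and 1 higher, and their sum had a median of 941 CPM in E21 and 993 CPM in numeric libraries. No interneuron score was among the covariates. With cortical, oligodendrocyte and astrocyte scores as covariates, the fall of Cnr1 was 0.11 (limma adjusted p = 0.02), Cnrip1 was no longer called, and Faah was called higher at 0.10 (limma adjusted p = 0.038). All libraries of both label formats were also fitted, Th libraries and the library with neither gene included. There the fall of Cnr1 was 0.15 and no longer called (limma adjusted p = 0.093). The 3 members called were Cnrip1, Daglb and Napepld, with 47.7% of all genes called. Under median-of-ratios scaling, only Cnr1 and Mgll stayed below the threshold, with 36.5% of all genes called. Of all calls 50.6% were higher, against 31.2% with scaling to the total. Library totals also differed, at 22.3 ± 4.93 M in E21 and 28.6 ± 9.12 M in numeric libraries (SD, n = 76 and 56). With the library total as a covariate Cnr1, Cnrip1 and Abhd6 were called, with 20.2% of all genes called.

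Corrected E21 libraries had more Cnr1 and Cnrip1 than E21 libraries (12 against 76). Cnr1 had 50.7, 101 and 125 CPM in corrected E21 libraries and 44.7, 72.1 and 129 CPM in E21 libraries, and rose by 0.37 on the log2 scale (SE 0.10, limma adjusted p = 0.0062). Cnrip1 had 56.8, 79.6 and 103 CPM in corrected E21 libraries and 49.9, 64.7 and 121 CPM in E21 libraries, and rose by 0.24 (SE 0.07, limma adjusted p = 0.027). All corrected E21 libraries lay within the E21 range for both genes. The other 6 members were not called, and their changes lay between 0.05 for Mgll and 0.17 for Dagla. Of all genes tested, 8.2% were called, 6.32% as higher and 1.88% as lower.

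Here too the cortical markers moved: 6 of 8 were called higher, and their sum ranged from 47.97 to 1010 CPM with a median of 637 CPM in corrected E21 libraries, against a median of 149 CPM in E21 libraries. Of the 12 medium spiny neuron markers, 4 were called lower, and of the 8 interneuron markers 3 were called higher. With the 3 marker scores as covariates no member was called, Cnr1 was at 0.09 (limma adjusted p = 0.44), and 1 gene was called by limma in all, with 2810 genes at an unadjusted p under 0.05. Against numeric libraries, limma called no gene higher or lower in corrected E21 libraries, with 1216 at an unadjusted p under 0.05, and the difference for Cnr1 was 0.06. Cnrip1 was not called under median-of-ratios scaling (limma adjusted p = 0.086) or quantile normalization (0.071 by limma). The 2 scalings put 56.9% and 55.5% of all calls higher, against 77.1% with scaling to the total.

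**Figure D2:**
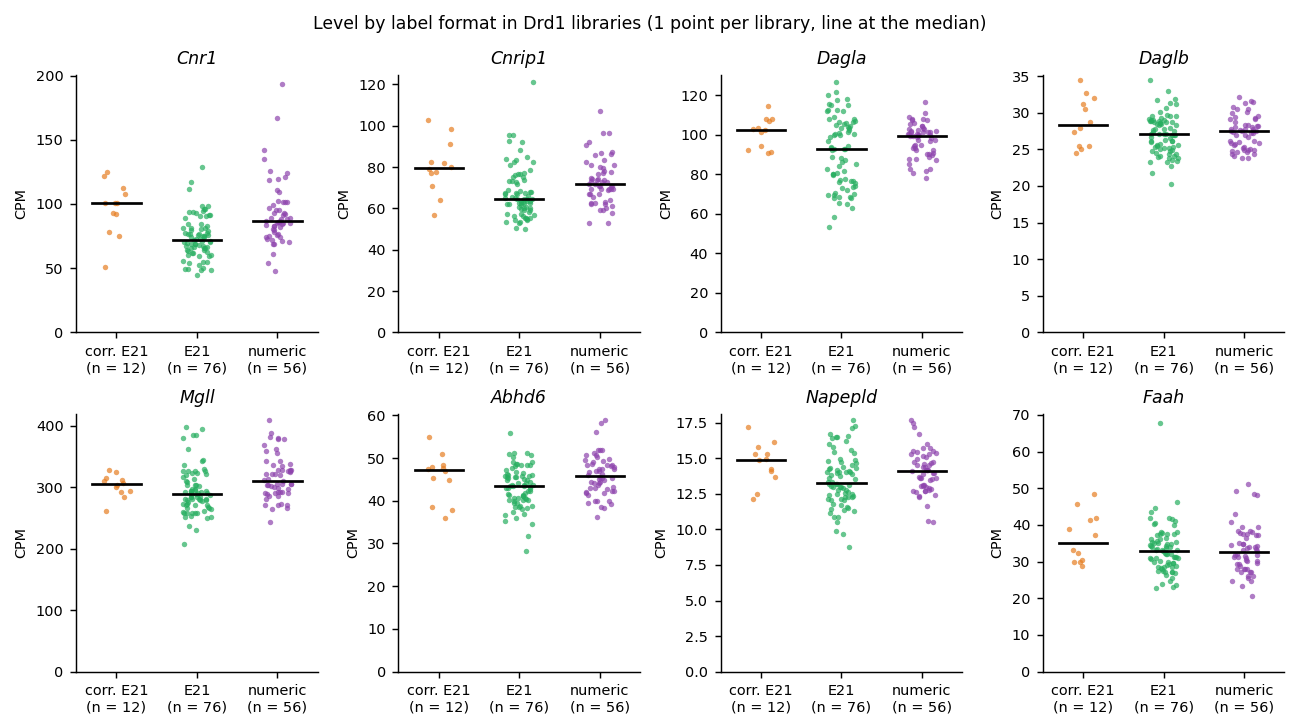
Level in CPM (y axis, from 0) of the 8 genes in corrected E21, E21 and numeric libraries with Drd1 of at least 100 CPM, with 1 point per library and a line at the median. Cnr1 medians are 101, 72.1 and 86.9 CPM in that order, and Dagla spreads more widely in E21 than in numeric libraries.

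Of the 29 tested genes of the wider system, 7 were called lower and 1 higher in E21 than in numeric libraries, where 37.6% of all genes were called. The phospholipase C genes Plcb4 and Plcb1 fell by 0.36 (SE 0.05, limma adjusted p = 4.8e-08) and by 0.35 (SE 0.08, limma adjusted p = 0.00016), and Gna11, a G protein that activates them, fell by 0.30 (SE 0.09, limma adjusted p = 0.0071). Cyp2d4, a cytochrome P450 enzyme, rose by 0.16 (SE 0.06, limma adjusted p = 0.03). In corrected E21 against E21 libraries, Plcb4 alone was called, with a rise of 0.45 (SE 0.10, limma adjusted p = 0.0017), where 8.2% of all genes were called.

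The level of each gene was then set against cell type marker scores across the 147 Drd1 libraries, in a joint limma model with label format as a term. A score is the mean of the standardised log2 levels of a marker list, and a slope is the log2 change of a gene per unit of score. On the cortical score 6 of the 8 genes rose and none fell, where 46.8% of all genes were called, 17.1% as rising and 29.7% as falling. The slope was 0.31 for Cnr1 (SE 0.02, limma adjusted p = 1.2e-25) and 0.21 for Cnrip1 (SE 0.02, limma adjusted p = 4.3e-24). Faah followed at 0.16 (SE 0.02, limma adjusted p = 2.1e-10), then Daglb at 0.07, Napepld at 0.06 and Mgll at 0.04. Dagla (0.002) and Abhd6 (-0.02) were not called. With scores standardised anew within E21 libraries alone the cortical slope of Cnr1 was 0.26 and within numeric libraries 0.31. In each, 5 of the 8 genes were called, without Mgll. Of all genes, 32.6% were called within E21 libraries (13.0% as rising) and 29.1% within numeric libraries (12.7% as rising).

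Cnr1 and the cortical score correlated with Pearson r = 0.78 and Spearman rho = 0.76 over 147 Drd1 libraries (permutation p = 1e-05 for both, 2-sided, the smallest that 100000 resamples can give). Without the 2 libraries farthest from the median score r was 0.76, and it was 0.69 within E21 and 0.77 within numeric libraries. For Cnrip1 r was 0.75 and rho 0.75 (permutation p = 1e-05 for both), with r = 0.75 without the 2 farthest libraries, 0.70 within E21 and 0.75 within numeric libraries. Cnrip1 correlated as well with the interneuron score, with r = 0.71 and rho = 0.75 (permutation p = 1e-05 for both), and r was 0.71 without the 2 farthest libraries, 0.78 within E21 and 0.46 within numeric libraries. With the medium spiny neuron score its r was -0.61 and rho -0.59 (permutation p = 1e-05 for both), with r = -0.59 without the 2 farthest libraries, -0.46 within E21 and -0.68 within numeric libraries. Cnr1 and the medium spiny neuron score had r = -0.46 and rho = -0.39 (permutation p = 1e-05 for both). That r was -0.38 without the 2 farthest libraries, -0.05 within E21 and -0.66 within numeric libraries. Other members had sizeable relations too, among them Dagla with the microglia score (r = -0.66) and Faah with the medium spiny neuron score (r = -0.58). The joint model held neither score. These are part of 64 relations computed between the 8 genes and 8 scores, and permutation p-values here are not adjusted.

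Mgll stood apart on the astrocyte score, where it was the only member that rose. Its slope was 0.15 (SE 0.01, limma adjusted p = 4.3e-21), with 0.16 within E21 and 0.14 within numeric libraries. Over all genes 53.1% were called on this score, 26.8% as rising and 26.3% as falling. Mgll and the astrocyte score correlated with r = 0.72 and rho = 0.61 (permutation p = 1e-05 for both), and r was 0.70 without the 2 farthest libraries, 0.77 within E21 and 0.74 within numeric libraries. The endothelial score tracked Mgll as well, with r = 0.64 and rho = 0.52 (permutation p = 1e-05 for both), and r was 0.59 without the 2 farthest libraries, 0.72 within E21 and 0.66 within numeric libraries. Dagla, Napepld and Faah fell with the astrocyte score, by 0.12, 0.06 and 0.06.

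On the oligodendrocyte score, Faah (0.10), Napepld (0.08) and Daglb (0.05) rose while Dagla and Cnr1 each fell by 0.06, where 29.8% of all genes were called, 20.9% as rising and 8.85% as falling. Within E21 libraries only Napepld was called, where 9.83% of all genes were called. Within numeric libraries Faah rose and Dagla fell, where 21.8% of all genes were called. In limma's test of the difference in slope between E21 and numeric libraries no member passed on any of the 3 scores, and the lowest adjusted p was 0.22, for Dagla on the astrocyte score. For Cnr1 on the cortical score the difference was -0.12 (95% interval -0.22 to -0.02, limma unadjusted p = 0.018 and adjusted p = 0.28). Of all 15427 genes, 22 passed on the cortical score, 1 on the oligodendrocyte score and 1490 on the astrocyte score.

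After these fits were seen, a score of 77 cytosolic ribosomal protein genes was added as a further term, because it moved with Dagla. Its list summed to between 12765 and 30432 CPM in Drd1 libraries. Dagla fell by 0.21 per unit of that score (SE 0.02, limma adjusted p = 3.7e-26) and Cnr1 by 0.19 (SE 0.02, limma adjusted p = 6.4e-15). Napepld fell by 0.10 and Abhd6 by 0.07, while Cnrip1 rose by 0.11 (SE 0.02, limma adjusted p = 5.6e-09). Of all genes, 75.2% were called on this score, 32.5% as rising and 42.6% as falling, so 5 of 8 members lay below the background share. Dagla and the score correlated with r = -0.81 and rho = -0.78 (permutation p = 1e-05 for both), and r was -0.78 without the 2 farthest libraries, -0.88 within E21 and -0.66 within numeric libraries. With that score in the model, the astrocyte slope of Dagla was 0.01 and no longer called, that of Mgll stayed at 0.16, Cnr1 was called as rising at 0.07 and Cnrip1 as falling by 0.10. The score was chosen because it moved with Dagla in these same libraries, so the p-values of Dagla on it are not independent evidence. What the ribosomal protein score stands for was not tested.

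**Figure D3:**
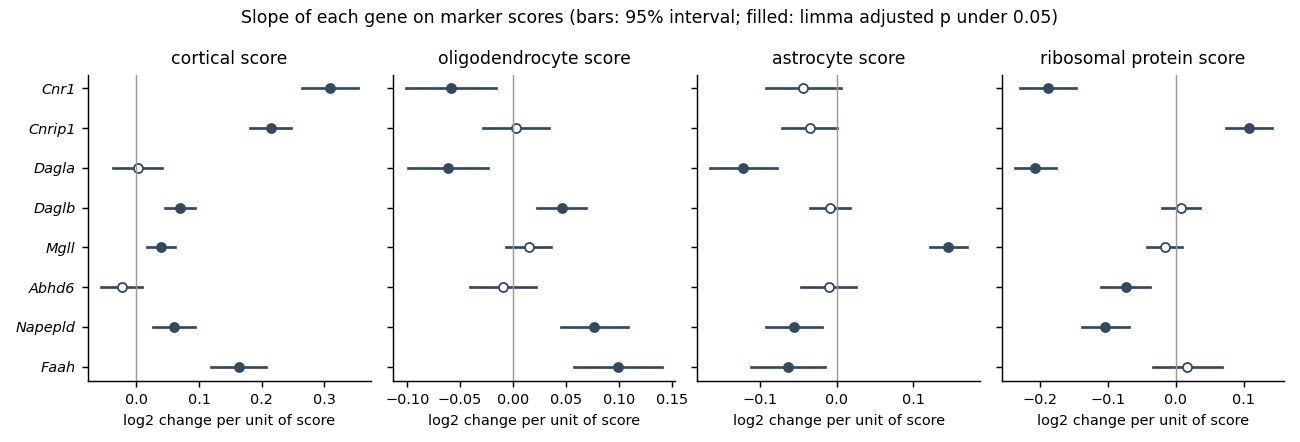
Slope of each of the 8 genes (rows) on the cortical, oligodendrocyte, astrocyte and ribosomal protein scores in 147 Drd1 libraries, as log2 change per unit of score with its 95% interval, with filled points where limma's adjusted p was under 0.05. Cnr1 and Cnrip1 have the largest cortical slopes (0.31 and 0.21), and Mgll is the only gene that rises with the astrocyte score (0.15). The ribosomal protein score was chosen because it moved with Dagla.

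**Figure D4:**
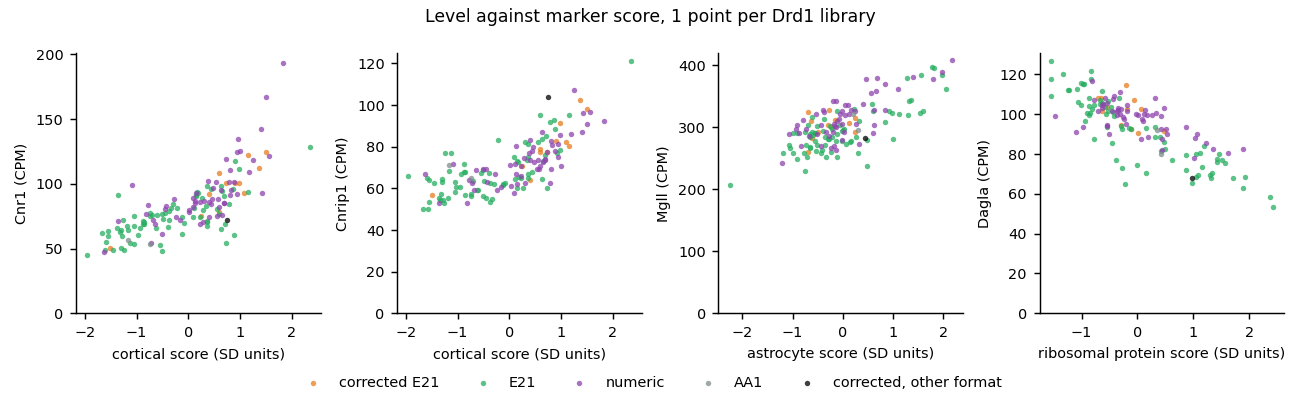
Level in CPM (y axis, from 0) against marker score (x axis) in the 147 Drd1 libraries, coloured by identifier format, for Cnr1 and Cnrip1 on the cortical score, Mgll on the astrocyte score and Dagla on the ribosomal protein score. The first 3 rise with their score (r = 0.78, 0.75 and 0.72) and Dagla falls (r = -0.81) with a score chosen because it moved with Dagla.

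Across the system list, 8 of 29 genes rose and 7 fell with the cortical score, where 46.8% of all genes were called. The lipid carriers Fabp3 (0.15, SE 0.02, limma adjusted p = 7.2e-09) and Fabp5 (0.15, SE 0.02, limma adjusted p = 2.2e-07) and the phosphatase gene Inpp5d (0.13, SE 0.02, limma adjusted p = 4.9e-10) had the highest slopes. Grm5 fell by 0.22, Gna11 by 0.19 and Cyp2d4 by 0.12. On the astrocyte score, where 53.1% of all genes were called, 11 rose and 12 fell, led by Cyp2d4 (0.28), Abhd4 (0.23), a hydrolase of an alternative anandamide route, and the glial fatty acid carrier Fabp7 (0.23), and the genes that fell included Plcb1, by 0.18, and Gprasp1, by 0.17. On the oligodendrocyte score, where 29.8% of all genes were called, 6 rose, led by Fabp7 (0.16), Plcb3 (0.11) and Fabp5 (0.09), and 7 fell, among them Ptgs2, by 0.11, and Grm5, by 0.09.

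Between Drd1 libraries Cnr1 was the most variable of the 8 genes and Daglb the least. The SD of the log2 level was 0.37 for Cnr1, above that of 87.4% of all genes tested, and 0.13 for Daglb, above 6.99%. In between were Faah (0.26), Cnrip1 (0.24), Dagla (0.23), Napepld (0.18), Mgll (0.17) and Abhd6 (0.16), and the median over all genes was 0.24. The highest Drd1 library had 4.33 times the Cnr1 level of the lowest, and 1.71 times for Daglb. After label format and the 3 scores were taken out, the SD was 0.22 for Cnr1, 0.16 for Cnrip1 and 0.10 for Mgll. Over all libraries, Th libraries included, the SD of Mgll was 0.42, above 82.5% of genes, against 21.6% among Drd1 libraries. Counting error alone, taken at the median count of Drd1 libraries, gave an SD of 0.02 on the log2 scale for Mgll. It gave 0.06 for Daglb and 0.08 for Napepld, so it was a larger part of the spread for these 2 genes. Median expected counts over all libraries used were 6713 for Mgll, 648 for Daglb and 330 for Napepld. Among Drd1 libraries Faah had the widest gap between neighbouring libraries of the 8 genes, 0.40, below 1 E21 library at 67.9 CPM.

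Among the 28 pairs of members, 16 were called in limma's slope of one gene on the other with label format as a term, 11 with a positive and 5 with a negative slope. The slope was fitted to all genes in turn, and the share called was 40.1% on Cnr1, 66.8% on Cnrip1, 75.2% on Dagla and 37.9% on Daglb. It was 45.8% on Mgll, 34.7% on Abhd6 and 48.8% on Napepld, so calls were common here too. The highest correlation was between Cnrip1 and Faah (r = 0.57, rho = 0.49, permutation p = 1e-05 for both, limma adjusted p = 1.0e-13). Daglb correlated with Cnrip1 (r = 0.52, rho = 0.50, permutation p = 1e-05 for both, limma adjusted p = 9.4e-09) and with Faah (r = 0.48, rho = 0.46, permutation p = 1e-05 for both, limma adjusted p = 1.1e-07). Without the 2 farthest libraries these 3 values of r were 0.51, 0.50 and 0.45. Within E21 libraries they were 0.59, 0.39 and 0.45, and within numeric libraries 0.57, 0.60 and 0.47. These 3 pairs were among 14 of the 28 called with the 3 marker scores as covariates. There 69.5% of genes were called on Cnrip1 and 16.5% on Daglb. They were also among the 7 pairs called with the ribosomal protein score added, where 48.6% of genes were called on Cnrip1 and 22.2% on Daglb. Of the negative pairs, Cnrip1 with Dagla was called as negative in all 3 of these fits (limma adjusted p = 0.00016, 6.9e-12 and 0.00021). As measured its r was -0.23 and rho -0.26 (permutation p = 0.0046 and 0.0014), with r = -0.46 within E21 and -0.10 within numeric libraries. After label format and the 3 marker scores its r was -0.55, the strongest of the 28 pairs.

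Cnr1 and its binding partner Cnrip1 correlated with r = 0.51 and rho = 0.49 (permutation p = 1e-05 for both, limma adjusted p = 4.8e-08), with r = 0.48 without the 2 farthest libraries, 0.34 within E21 and 0.59 within numeric libraries. Once label format and the 3 marker scores were taken out of both genes, r was -0.18 and the slope was called as negative (limma adjusted p = 0.049), where 63.4% of genes were called on Cnr1. With the ribosomal protein score added the slope was positive at 0.12 and not called (limma adjusted p = 0.38). The enzyme pair for 2-AG, Dagla and Mgll, turned the other way: r was -0.10 and rho -0.14 as measured (permutation p = 0.22 and 0.091), with a negative slope called by limma (adjusted p = 0.027), and after the 3 scores r was 0.37 with a positive slope (limma adjusted p = 1.6e-05), where 76.9% of genes were called on Dagla. Cnr1 and Napepld correlated with r = 0.41 and rho = 0.41 (permutation p = 1e-05 for both, limma adjusted p = 0.00016), with r = 0.41 without the 2 farthest libraries, 0.42 within E21 and 0.39 within numeric libraries, and r after the 3 scores was 0.36. With the ribosomal protein score this pair was not called (limma adjusted p = 0.53), where 2.65% of genes were called on Cnr1.

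**Figure D5:**
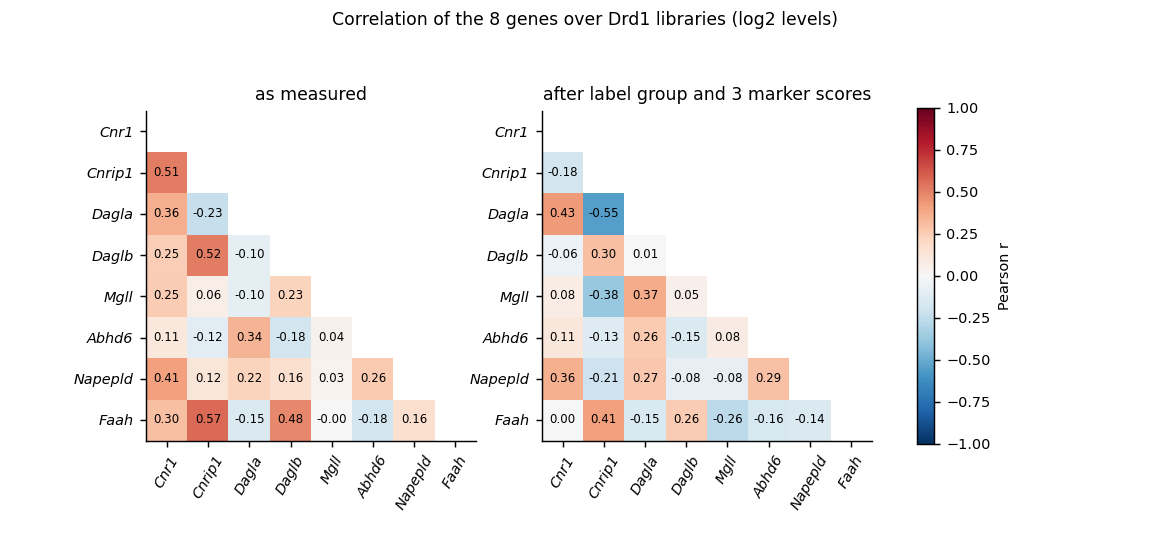
Pearson r between the log2 levels of the 8 genes over 147 Drd1 libraries, as measured (left) and after label format and the 3 marker scores were taken out of each gene (right), with red for positive and blue for negative values. Cnrip1 with Faah is the highest pair as measured (0.57), and Cnr1 with Cnrip1 is at 0.51 on the left and -0.18 on the right.

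The genes whose log2 levels were most like each member over the 147 Drd1 libraries, among 10167 genes that averaged 10 CPM or more, were found by Pearson r. For Cnr1 they were Ppm1e (0.88), Kcnj3 (0.88) and Oxr1 (0.88), and for Cnrip1 Stmn2 (0.90), Tagln3 (0.88) and Sncb (0.88). Dagla was closest to Adgrl1 (0.94), Pcdh1 (0.93) and Pcnx2 (0.91), and 25.0% of the genes compared had r of at least 0.5 with it, against 0.659% for Daglb. For Mgll the genes were Ezr (0.84), Map3k10 (0.81) and Brsk1 (0.81). For Faah they were Apbb1 (0.70), Stx1a (0.63) and Sfxn3 (0.63), and for Napepld Zfp536 (0.65), Ptprd (0.65) and Apbb2 (0.62). Daglb reached 0.61 with Dctn2, 0.60 with Slc27a4 and 0.59 with Cyb5r1. Abhd6 had no gene at r of 0.5 or more, and its nearest were Nolc1 (0.47), Hdgfl2 (0.46) and Usp38 (0.46). These values share libraries, depth and tissue makeup, and describe likeness across rats only.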

How the data were processed

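PolyA RNA-seq of the rat nucleus accumbens core was used, 1 library per rat identifier. The authors quantified reads with kallisto 0.48, per the submitters' processing notes. Annotation, build, strand and the summing of transcripts were not given in the sources used here. Deposited by the authors were log2 values, each of an expected count plus 1 as judged from the numbers, since the header names no unit. Expected counts were recovered, scaled to CPM and logged after 1 was added, which understates changes of low genes. Positions of 99.984% of 38264 genes, and of all 8 members, equal a gene end in the RefSeq table of GRCr8. Estimated counts of genes with overlapping neighbours are uncertain.

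Groups and slopes were fitted with limma 3.58.1 in R 4.3.3 (moderated test with an intensity trend, 2-sided, Benjamini-Hochberg over 15427 genes). The E21 against numeric fit was also run on simulated counts, and the slopes were not. Simulated counts were drawn independently for each gene at the same dispersion, so that run cannot speak to false calls among genes that vary together. Correlations had permutation p-values from 100000 resamples. Other steps used scipy 1.17.1, pandas 2.3.3, numpy 2.4.6 and, for plots, matplotlib 3.10.9 under Python 3.11.15. The highest correlation between any libraries was 0.994, and none were merged. P-values set an effect against the spread between libraries, part of which may be technical, and treat libraries as independent. Labels do not say how rats were housed or processed together, so that independence could not be checked and p-values may be too small. The members, gene lists, thresholds and tests were chosen with earlier results of these data known. By rule, the text names all 8 members, for each the 3 most similar genes, and in the system list the 3 largest called rises and falls. One gene that this rule names is not reported here. The genes named between Th and Drd1 libraries, and Cnr2, were chosen after their values were seen. Promoters of 6 of the 8 members were found in the RefSeq table.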

Additional observations from a re-analysis of the deposited data

Results flagged for a closer look

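The library labelled numeric replicate 3, which had neither Th nor Drd1 at 100 CPM and entered no comparison other than the fits on all libraries, held values above all 147 Drd1 libraries for 4 of the 8 genes. These were 258 CPM of Cnr1, 145 CPM of Cnrip1, 37.5 CPM of Daglb and 20.7 CPM of Napepld, against highest Drd1 libraries of 193, 121, 34.5 and 17.7 CPM. Its 12 medium spiny neuron markers summed to 474 CPM, against 3114 to 8097 CPM in Drd1 libraries, and its 8 oligodendrocyte markers to 3182 CPM, against 9780 to 37943 CPM. It is 1 library, so no test was made.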

How the results depend on the processing

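No paired analysis was possible because replicate numbers only follow accession order. The alternatives were pseudocounts of 0.5 and 5 CPM, quantile normalization, median-of-ratios scaling, no filter on low values or a mean of at least 10 CPM, all libraries of the groups, and the library total or marker scores as covariates. The ribosomal protein score was chosen after seeing the data. In E21 against numeric libraries, 5 members were called in the reported fit, with 37.6% of all genes. Under median-of-ratios scaling 2 were called (36.5% of genes), and under quantile normalization 3 (37.7%). With all libraries 3 were called (47.7% of genes). The library total as covariate also left 3, where 3113 genes (20.2%) were called in place of 5796. With all libraries Cnrip1 alone of the 5 was called, beside Daglb and Napepld, and Cnr1 was not (-0.15, limma adjusted p = 0.093). There Mgll was at 0.10, and with the marker scores as covariates Cnrip1 was at 0.019, both reversed in sign and not called. In corrected E21 against E21 libraries, 2 members were called in the reported fit, with 8.2% of all genes. With no filter 1 was called (3.4% of genes), as under quantile normalization (8.83%) and median-of-ratios scaling (8.23%). With the marker scores as covariates 0 were called (1 gene in all by limma, 2810 at an unadjusted p under 0.05). Against numeric libraries 0 were called too (0 genes by limma, 1216 unadjusted). With all libraries 791 genes were called in place of 1265.

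The cortical score called 4491 genes within numeric libraries in place of 7223, and 5 or 6 members under every alternative. The oligodendrocyte score called 1516 genes (9.83%) and 1 member within E21 libraries, and 2 members within numeric libraries (21.8% of genes). With the ribosomal protein score it called 3 members (40.9% of genes). The reported fit called 4595 genes (29.8%) and 5 members. The astrocyte score called 2 members on its own (59.4% of genes) or within numeric libraries (37.8%), in place of 4 (53.1%). Signs turned with all libraries for Mgll on the oligodendrocyte score (-0.10) and, on the astrocyte score, for Mgll (-0.042), Napepld (0.0042) and Daglb (0.057). On the astrocyte score they also turned for Faah without the other scores (0.0069), and with the ribosomal protein score for Dagla (0.0075), Napepld (0.0096) and Cnr1 (0.074). The ribosomal protein score called 6976 genes and 3 members within numeric libraries, in place of 11595 and 5.

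For pairs with the 3 marker scores, slopes reversed to -0.13 (Cnrip1 on Cnr1), -0.030 (Daglb on Cnr1), -0.21 (Napepld on Cnrip1), -0.25 (Mgll on Cnrip1) and 0.20 (Mgll on Dagla). With the ribosomal protein score as well, they reversed to -0.034 (Dagla on Cnr1), -0.023 (Daglb on Cnr1), -0.28 (Mgll on Cnrip1) and 0.36 (Mgll on Dagla). The cause of these changes was not tested. Median levels of Th and Drd1 libraries moved by less than 1 SD under median-of-ratios scaling, and no library changed its profile at 50 CPM. Depth limits Napepld most, at 173 expected counts in its lowest library.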

Other observations

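The corrected library of another label format was alone in its group and had 104 CPM of Cnrip1, the third highest of the 147 Drd1 libraries, and 67.8 CPM of Dagla, ranked 142. The AA1 libraries had 56.6 and 53.8 CPM of Cnr1, ranked 132 and 138 of 147.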
